A study of Mus musculus with 30 samples.

Results

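Ndst1, Ndst2, Ndst3, Ext1, Ext2, Extl3, Glce, Hs2st1, Hs6st1 and Hs6st2 encode enzymes that build and sulfate heparan sulfate, and their expression was compared between socially isolated (SI) and group-housed (GH) mice. These 10 genes were named as a list out of 17477 genes in the count table, and all 10 passed the filter on low counts, among 16026 genes tested in females and 15833 in males. The list was selected on these data: it was chosen because the Ndst1 values were lower in SI than in GH mice, so the housing difference of Ndst1 is given below as a description with no test. The values of the other 9 genes did not choose the list.

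Heparan sulfate is a long sugar chain carried by proteins of the cell surface and the extracellular matrix, where it binds growth factors, morphogens and synaptic adhesion proteins. A chain is started on the core protein, lengthened by the exostosin polymerases, and then modified in steps that begin with N-deacetylation and N-sulfation, followed by epimerization of glucuronic acid and by O-sulfation. In the brain, the pattern of sulfation is known to influence axon guidance and synapse formation.

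RNA-seq was performed on hippocampus from 30 adult C57 BL/6J mice, each mouse giving 1 library. They carried no allele or agent named in the labels, and from weaning they were housed either alone (SI) or in groups in shared cages (GH) until adulthood. There were 8 SI females, 7 GH females, 7 SI males and 8 GH males, numbered here by the animal numbers of the labels. Cage membership was not given in the sources used here, and p-values measure the spread between mice.

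Total counts per library ran from 18809307 to 100844898, and the lowest count of any of the 10 genes in any library was 133, for Ndst2 in SI male 25. Levels are given as CPM (counts scaled to the TMM-adjusted library size) and differences as Log2FC of SI against GH from edgeR with surrogate variables, with p adjusted over all genes tested. SI males 25, 33 and 39 stood apart from the other libraries: the slope of gene level on transcript length was -0.476, -0.456 and -0.365 log2 per doubling of length in them, against -0.130 to 0.180 in the other 27 libraries. Male values of the 10 genes and of the pathway genes called in females are therefore given with and without these 3 mice. The length slope had a mean of 0.038 in SI and 0.047 in GH females (p = 0.839, two-sided exact permutation test), and of -0.154 in SI and 0.055 in GH males (p = 0.0698, same test). Total counts were lower in SI males, with a mean of 31730000 against 48690000 in GH males (p = 0.0392, two-sided exact permutation test). For females the mean was 50170000 in SI and 40790000 in GH mice (p = 0.397, two-sided exact permutation test). The part of total counts in the male differences was not tested. Markers of neurons, dentate gyrus, CA1, CA3, interneurons and glia were detected in every library. The summed CPM of 7 choroid plexus markers, genes of a tissue that adjoins the hippocampus, varied widely: from 846 through a median of 1732 to 4860 in GH females and from 1550 through 2874 to 3950 in SI females, and from 38.2 through 2026 to 2217 in GH males and from 37.2 through 2136 to 4138 in SI males. The lowest sums were in GH males 1, 2 and 3 and SI males 7 and 8, at 37.2 to 154.

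The windows around the transcription starts of Ndst2, Ndst3 and Hs6st1 are shown because they span the range of base composition among the genes with a window: Hs6st1 had the highest GC content and Ndst3 had windows with the lowest. Each window runs from 250 bases before to 50 bases after the start, 5′ to 3′ on the strand of the gene, from RefSeq on GRCm38.p6. RefSeq windows were found for 7 of the 10 genes, 9 windows in all, and Ndst1, Ext1 and Extl3 are named only. Capitals mark the GC box GGGCGG or its other strand CCGCCC.
Ndst2 (chr14:20734513-20734812, minus strand): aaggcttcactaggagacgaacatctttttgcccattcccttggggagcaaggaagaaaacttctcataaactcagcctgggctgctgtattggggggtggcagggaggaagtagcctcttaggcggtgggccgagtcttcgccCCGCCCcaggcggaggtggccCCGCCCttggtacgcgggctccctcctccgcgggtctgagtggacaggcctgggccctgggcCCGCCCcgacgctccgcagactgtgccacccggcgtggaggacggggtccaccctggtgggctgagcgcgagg
Ndst3 (chr3:123672428-123672727, minus strand): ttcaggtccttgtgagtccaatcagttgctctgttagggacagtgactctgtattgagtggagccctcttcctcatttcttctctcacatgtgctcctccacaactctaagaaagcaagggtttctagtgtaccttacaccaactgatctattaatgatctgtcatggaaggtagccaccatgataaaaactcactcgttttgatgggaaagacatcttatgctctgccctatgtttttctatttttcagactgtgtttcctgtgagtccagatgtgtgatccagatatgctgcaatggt
Hs6st1 (chr1:36068150-36068449, plus strand): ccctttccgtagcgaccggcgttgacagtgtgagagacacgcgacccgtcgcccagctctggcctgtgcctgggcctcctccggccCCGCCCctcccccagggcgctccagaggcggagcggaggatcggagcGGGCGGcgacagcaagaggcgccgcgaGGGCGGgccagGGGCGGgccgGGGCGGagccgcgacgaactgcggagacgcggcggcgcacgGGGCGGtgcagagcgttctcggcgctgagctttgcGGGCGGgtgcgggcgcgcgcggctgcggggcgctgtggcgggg

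The Hs6st1 window was 78% GC with 47 CpG and 7 GC boxes, against a median of 52.7% GC and 7 CpG over all 32851 mouse windows. The Ndst2 window was 66.7% GC with 20 CpG and 3 GC boxes. The Ndst3 window shown, the one farther upstream, was 43.0% GC with 1 CpG and no GC box. Of all windows, 35.7% held a GC box on either strand, so a match describes the letters only. The TATA box letters TATAAA occurred in 13.6% of all windows and, among these genes, only in 1 of the windows of Hs6st2. The E box letters CACGTG, present in 7.15% of all windows, occurred only in the Ext2 window, and TGACGTCA, present in 1.79%, in none of the 9.

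The N-deacetylase/N-sulfotransferases open the modification of the chain, and Ndst1 is the main form in most tissues. In GH females Ndst1 ran from 127 CPM through a median of 149.9 to 157, and in SI females from 106 through 128 to 137. The groups overlapped through 1 mouse on the GH side: GH female 78 was the lowest of its group, while the other 6 GH females lay above every SI female, and 4 of 8 SI females lay below every GH female. The means were 147 ± 9.57 (SD, n = 7) in GH and 127 ± 10.5 (SD, n = 8) in SI females, a difference of -13.9%, and the fitted Log2FC was -0.20 (SE 0.0303). Because bulk hippocampus was measured, fewer cells of a type and less RNA per cell cannot be told apart for this or any other gene here.

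In males Ndst1 ran from 118 through a median of 135.5 to 148 CPM in GH mice and from 70.7 through 110.2 to 150 in SI mice. The spread in SI males was wide, with 5 of 7 below every GH male and 1 above every GH male. SI males 25, 33 and 39 were the lowest, at 70.7 to 77.2 CPM. The SI mean was 106 ± 34.0 (SD, n = 7) against 136 ± 11.1 (SD, n = 8), a difference of -22.1%, with a fitted Log2FC of -0.15 (SE 0.064). Without the 3 mice the SI mean was 130 ± 21.3 (SD, n = 4), a difference of -4.06% from GH males.

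Ndst2 and Ndst3 encode other forms of the same enzyme, and neither passed the test for housing. Ndst2 ran from 10.2 through 10.7 to 12.9 CPM in GH females and from 9.39 through 11.4 to 13.2 in SI females. The groups overlapped almost completely, with 1 SI female below and 1 above all GH females, and the Log2FC was 0.03 (SE 0.0514, adjusted p = 0.782). Ndst3 ran from 12.4 through 13.6 to 16.6 CPM in GH females and from 9.95 through 14.7 to 15.98 in SI females, with a Log2FC of 0.07 (SE 0.0804, adjusted p = 0.704). In males the Log2FC was 0.04 (SE 0.0783, adjusted p = 0.856) for Ndst2 and -0.11 (SE 0.0824, adjusted p = 0.565) for Ndst3. Both genes were low in SI males 25, 33 and 39, at 5.65 to 9.21 CPM for Ndst2 and 7.73 to 9.15 for Ndst3. With all males the unadjusted SI mean differed from the GH mean by -10.8% for Ndst2 and -19.2% for Ndst3. Without these mice it differed by 5.23% and -2.65%, and the fitted Log2FC was 0.013 and -0.036.

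**Figure D1:**
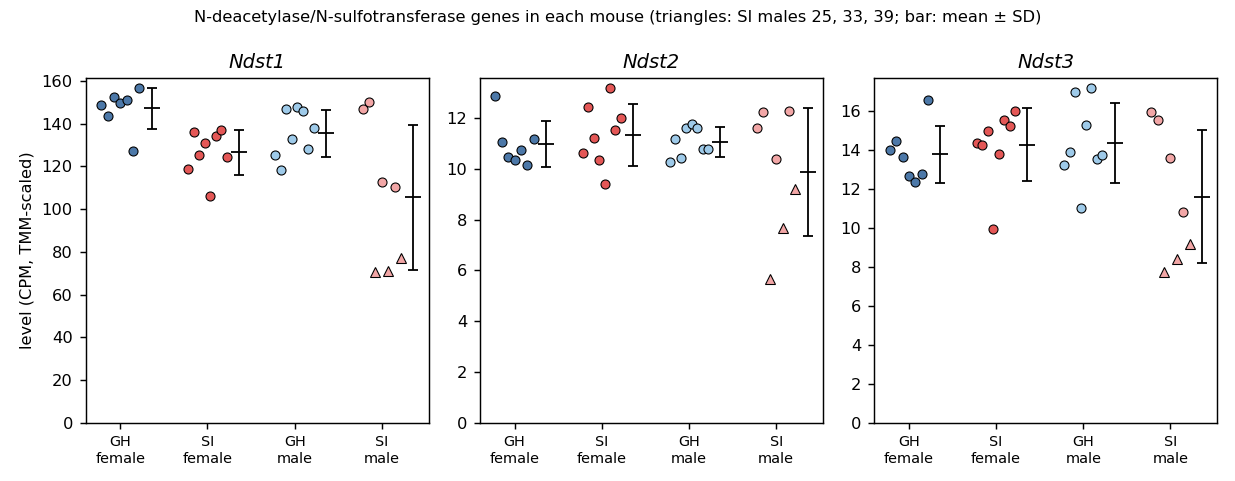
CPM (y axis, TMM-scaled, from 0) of Ndst1, Ndst2 and Ndst3 in each mouse of the 4 groups (x axis), with a bar for the mean ± SD and triangles for SI males 25, 33 and 39. For Ndst1, 6 of 7 GH females lay above all SI females, and the triangles were the lowest Ndst1 values of the series, at 70.7 to 77.2 CPM.

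Per length, Ndst1 supplied most of the NDST transcripts of every library, counting Ndst4, the remaining form of the enzyme. Its share of the summed CPM per kb of the 4 genes was 68.1% ± 1.45 (SD, n = 7) in GH females and 63.3% ± 2.43 (SD, n = 8) in SI females. In males it was 65.3% ± 2.50 (SD, n = 8) in GH and 62.9% ± 2.88 (SD, n = 7) in SI mice. SI females ran from 60.6% to 68.1% and GH females from 65.9% to 69.7%, so the ranges overlapped through SI female 52 alone, the highest of its group. The share is built from the values of Ndst1 that chose the list and is given with no test. The share of Ndst4 was 15.2% ± 1.78 (SD, n = 7) in GH and 18% ± 1.59 (SD, n = 8) in SI females, and Ndst4 itself had a Log2FC of 0.16 (SE 0.0798, adjusted p = 0.295) in females.

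Ext1 and Ext2 form the polymerase that lengthens the chain. Ext2 ran from 34.9 through 37.9 to 41.6 CPM in GH females and from 36.7 through 41.2 to 46.6 in SI females. In SI females 4 of 8 mice lay above every GH female, and the Log2FC of 0.10 (SE 0.0419) had an unadjusted p of 0.0345 in edgeR, with an adjusted p of 0.202. In males Ext2 ran from 37.2 through 41.6 to 46.5 CPM in GH and from 30.4 through 38.7 to 45.3 in SI mice, with a Log2FC of 0.02 (SE 0.0541, adjusted p = 0.891). The lowest SI males were again 25, 33 and 39. The unadjusted SI mean differed from the GH mean by -7.37% with them and by 3.29% without them, where the fitted Log2FC was -0.043. Ext1 gave no difference past the threshold in females, at 29.5 through 33.01 to 35.9 CPM in GH and 28.1 through 32.1 to 38.4 in SI mice, with a Log2FC of 0.00 (SE 0.0581, adjusted p = 0.997).

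Ext1 had the largest fitted Log2FC of the list in males, and it did not pass the test. It ran from 32.1 through 34.6 to 38.9 CPM in GH males and from 30 through 43.6 to 64.1 in SI males, where 5 of 7 mice lay above every GH male. SI males 25, 33 and 39 were the highest, at 50.6 to 64.1 CPM. Ext1 and Hs6st2 were the genes of the list that were higher in each of these libraries than in the other 4 SI males. The SI mean was 45.2 ± 11.8 (SD, n = 7) against 35.2 ± 2.17 (SD, n = 8), and the Log2FC was 0.17 (SE 0.0962, adjusted p = 0.454). Without the 3 mice the SI mean was 37.1 ± 6.64 (SD, n = 4), 5.44% above the GH mean, and the Log2FC was -0.02.

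Extl3, which adds the first N-acetylglucosamine of the chain, ran from 127 through 138 to 153 CPM in GH females and from 125 through 134 to 151 in SI females. The groups overlapped, and the Log2FC was -0.04 (SE 0.0321, adjusted p = 0.546). In males it was -0.02 (SE 0.0474, adjusted p = 0.908), with SI males 25, 33 and 39 at 92.5 to 99.3 CPM and the other 4 SI males at 127 to 152. The unadjusted SI mean differed from the GH mean by -12.4% with the 3 mice and by 2.14% without them, where the fitted Log2FC was -0.048.

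Glce, the epimerase that turns glucuronic into iduronic acid, ran from 18.1 through 19.8 to 22 CPM in GH females and from 17.7 through 18.7 to 20.6 in SI females. Its Log2FC was -0.05 (SE 0.0484, adjusted p = 0.615). In males Glce ran from 18.01 through 19.2 to 20.3 CPM in GH and from 10.6 through 15.4 to 19.8 in SI mice, where 5 of 7 SI males lay below every GH male. The male Log2FC was -0.13 (SE 0.0622), with an unadjusted p of 0.0478 in edgeR and an adjusted p of 0.382. The unadjusted SI mean of all males differed by -19.4% from the GH mean. Without SI males 25, 33 and 39, which were at 10.6 to 13.8 CPM, the SI mean was 17.9 ± 1.93 (SD, n = 4). That was a difference of -6.59% from the GH mean, and the fitted Log2FC was -0.046.

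The O-sulfotransferases finish the pattern: Hs2st1 sulfates iduronic acid, and Hs6st1 and Hs6st2 sulfate glucosamine. In females Hs2st1 ran from 50.5 through 52.5 to 56.6 CPM in GH and from 49.3 through 51.5 to 56.2 in SI mice, with a Log2FC of -0.03 (SE 0.0371, adjusted p = 0.687). Hs6st1 ran from 42.6 through 47.6 to 57.6 CPM in GH and from 44.1 through 49.7 to 68.2 in SI females, with a Log2FC of 0.04 (SE 0.0494, adjusted p = 0.688). All groups of these genes overlapped in females. Hs6st2 ran from 24.2 through 30.7 to 31.7 CPM in GH and from 26.7 through 30.4 to 32.95 in SI females, with a Log2FC of 0.04 (SE 0.0618, adjusted p = 0.784).

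In males the Log2FC was -0.10 (SE 0.0526, adjusted p = 0.413) for Hs2st1, 0.03 (SE 0.0727, adjusted p = 0.905) for Hs6st1 and 0.08 (SE 0.0985, adjusted p = 0.756) for Hs6st2. Hs2st1 and Hs6st1 were low in SI males 25, 33 and 39, at 34.3 to 44.0 and at 27.5 to 31.5 CPM. Hs6st2 was at 29.3 to 46.7 CPM in the same mice, above the 28.2 to 29.1 of the other 4 SI males. The unadjusted SI mean differed from the GH mean by -14.6% for Hs2st1, -15.5% for Hs6st1 and 16.4% for Hs6st2 with all males. Without the 3 mice it differed by -4.43%, 6.13% and 1.86%, and the fitted Log2FC was -0.040, -0.096 and 0.035. In GH males Hs2st1 ran from 51.4 to 57.3, Hs6st1 from 44.5 to 58.9 and Hs6st2 from 22.9 to 32.5 CPM, and the ranges of SI males overlapped them in part. For Hs2st1 5 of 7 SI males lay below every GH male, and 2 of 4 without the 3 mice. For Hs6st1 4 of 7 SI males lay below and 1 above every GH male. For Hs6st2 2 of 7 SI males lay above every GH male, and 5 of 8 GH males below every SI male.

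**Figure D2:**
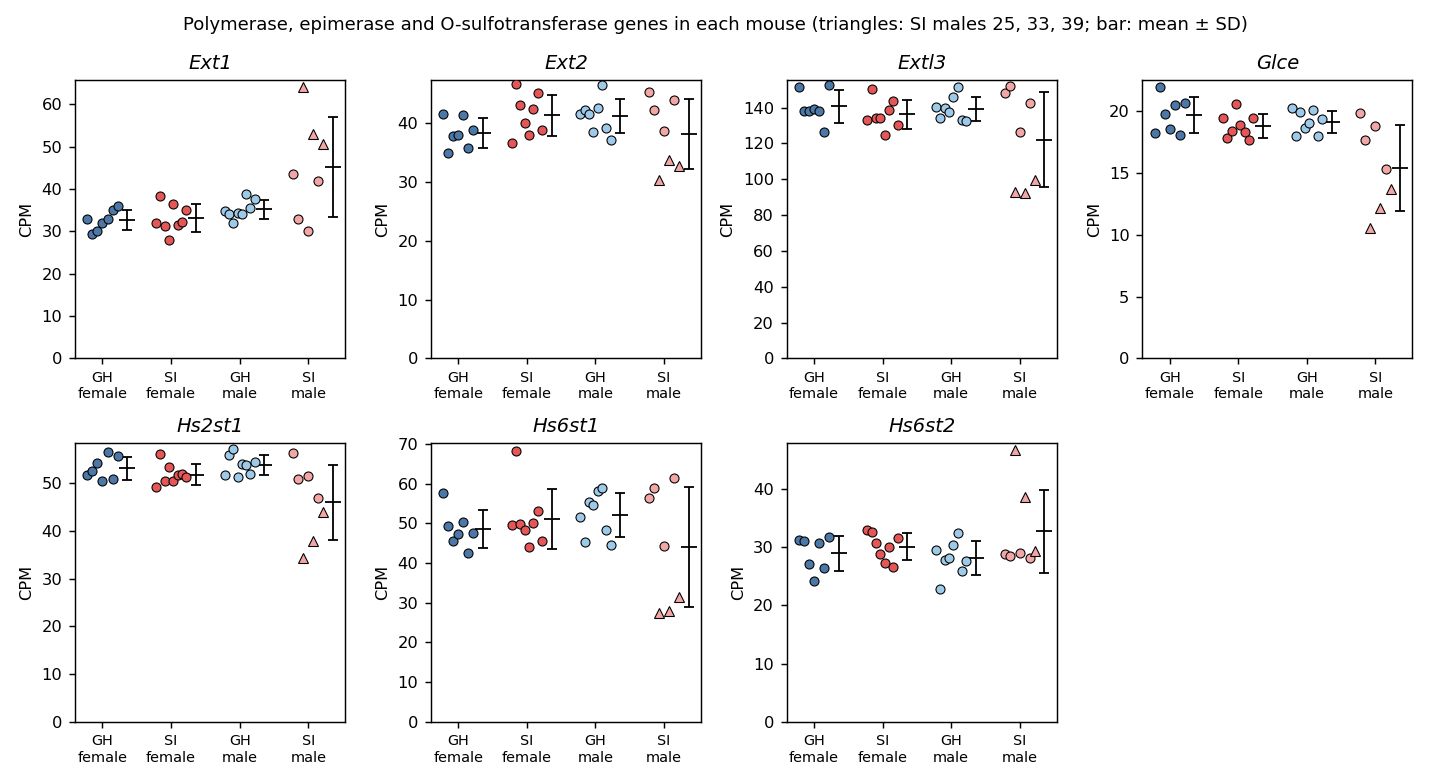
CPM (y axes, from 0) of the polymerase, epimerase and O-sulfotransferase genes in each mouse of the 4 groups (x axes), with a bar for the mean ± SD and triangles for SI males 25, 33 and 39. GH and SI females overlapped for all 7 genes, while the triangles were low for 5 genes and high for Ext1, at 50.6 to 64.1 CPM.

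Ndst1 chose the list and is left out of its counts. Of the other 9 genes, 0 were called by edgeR in females, against 3.89% of all genes, 2.93% being lower in SI. An unadjusted p under 0.05 was found for 1 of the 9 (Ext2), and for 20.2% of all genes. In males 0 of the 9 were called by edgeR, the background being 0% of 15833 genes. There 1 of the 9 (Glce) had an unadjusted p under 0.05, against 13% of all genes (2060). The median Log2FC of the 10 genes was 0.02 in females and 0.00 in males, and the median of all genes tested was 0.01 and 0.00. Leaving Ndst1 out, it was 0.03 in females and 0.02 in males. In edgeR without surrogate variables no gene was called in females, and the male Log2FC of Ndst2, Ext2 and Hs6st1 turned to -0.16, -0.11 and -0.24. Also without surrogate variables, 838 genes were called in females by limma-voom, and 90 by edgeR after the length and GC trend was removed. Without SI male 27, 2414 genes were called in males, Ext1 (0.30) and Glce (-0.21) among them.

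**Figure D3:**
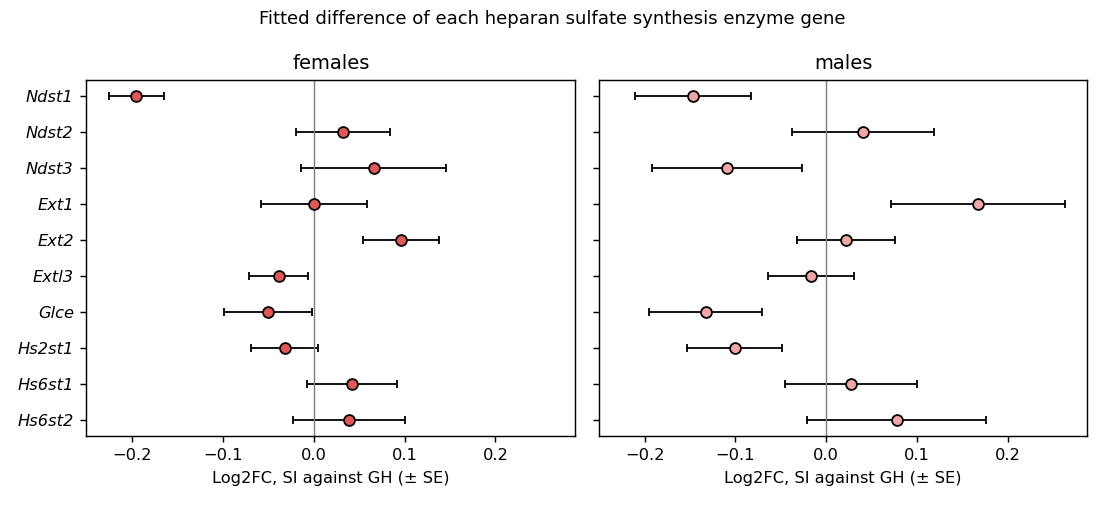
Log2FC of SI against GH (x axis, log2, ± SE) for each of the 10 genes (y axis) in 8 SI and 7 GH females and in 7 SI and 8 GH males. The Ndst1 point, which chose the list, was at -0.20 in females, and the other 9 female points lay between -0.05 and 0.10.

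Levels between genes are compared only per length, that of the longest protein-coding transcript, and which transcripts were expressed was not tested. Over all 30 libraries Extl3 had the highest mean, 22.5 CPM per kb, followed by Ndst1 at 19.9. Ext2, Hs6st1 and Hs2st1 were at 13.9, 13.2 and 10.7 CPM per kb. Hs6st2 was at 6.88, Ext1 at 4.75, Glce at 3.97, Ndst2 at 3.07 and Ndst3 at 2.45 CPM per kb. Ext2 and Hs6st1 were closer than their spread between mice, at 13.4 ± 0.883 and 13.1 ± 1.27 CPM per kb (SD, n = 7) in GH females. On NCBIM37 the genes lie on 8 chromosomes, with Ndst1 on chromosome 18 from 60845632 to 60908304, Ext1 on chromosome 15 from 52895593 to 53177714, and Hs6st2 on the X chromosome from 48740389 to 49035033. Ndst2 and Extl3 lie on chromosome 14 (from 21542952 to 21549766 and from 65670897 to 65716943), Ndst3 and Hs2st1 on chromosome 3 (from 123229084 to 123393770 and from 144094067 to 144233145). Ext2 lies on chromosome 2 from 93535788 to 93662725, Glce on chromosome 9 from 61905055 to 61918413 and Hs6st1 on chromosome 1 from 36125245 to 36163291. The median transcript length of the 10 genes was 4703 bases, against 3015 over the genes tested in females.

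Across the 15 females, with each housing group centred on its mean, the log2 CPM of Ndst1 went with that of Extl3 (Pearson r = 0.807), Ext2 (0.691) and Ndst2 (0.621), and least with Glce (0.0186) and Ext1 (-0.228). These correlations share the libraries, and the length slope of the library itself had r = 0.899 with Ndst1, 0.792 with Extl3 and 0.0286 with Ext1. Of 10094 genes compared in the same way, those most like Ndst1 were Slc41a1 (r = 0.978), Faxc (0.968), Xylt1 (0.961), Dlg5 (0.961) and Pakap (0.96). The part of the length slope in the differences between housing groups was not tested beyond the settings given at the end, and without the length and GC trend of each library the female Log2FC of Ndst1 was -0.17 with and -0.19 without surrogate variables.

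**Figure D4:**
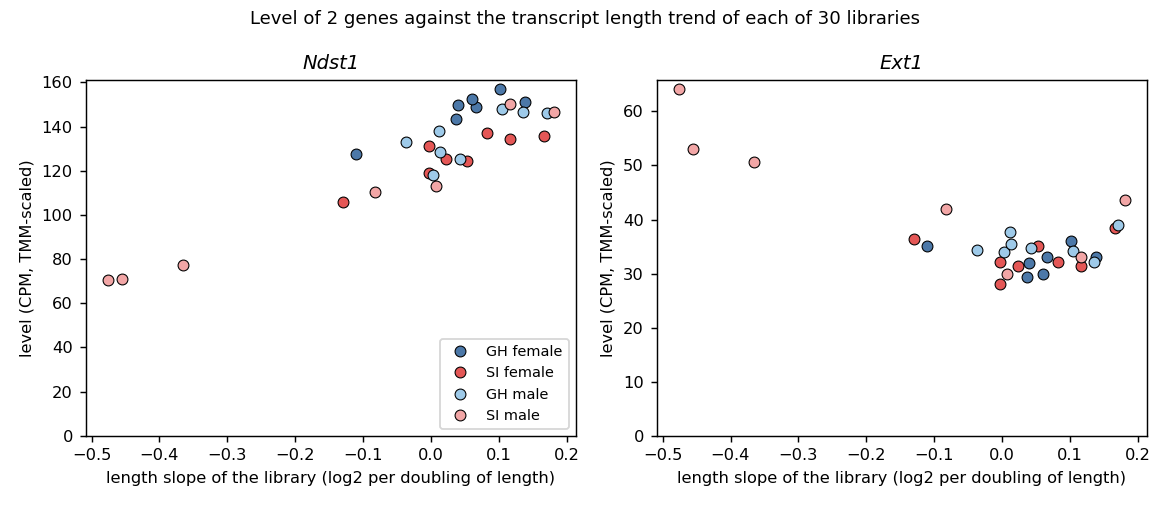
CPM (y axes, from 0) of Ndst1 and Ext1 against the slope of gene level on transcript length (x axes, log2 per doubling) in each of the 30 libraries, by group. Ndst1 was lowest and Ext1 highest in the 3 SI males at -0.476 to -0.365.

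Among GH mice, the sexes were compared with males against females. Ndst1 was 136 ± 11.1 CPM in GH males and 147 ± 9.57 in GH females, a Log2FC of -0.13 (SE 0.0379) that shares the GH females with the values that chose the list and is given with no test. None of the other 9 genes was called by edgeR, against 6.31% of all genes. With DESeq2, where 1935 genes were called, Ext2 was among them (adjusted p = 0.0445). Ext2 had a Log2FC of 0.13 (SE 0.043, adjusted p = 0.065) and Hs6st1 of 0.14 (SE 0.0493, adjusted p = 0.0797). The effect of SI was also compared between the sexes in edgeR with an interaction term, for which 0% of 16391 genes were called, with 1226 at an unadjusted p under 0.05 and 8 called by DESeq2. The lowest adjusted p among the other 9 genes was 0.791, for Ndst3, and a difference between the sexes was therefore not shown for any of them.

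The rest of the pathway was described by lists of 53 genes, 52 of which were tested. In females 5 of the 52 were called by edgeR, all lower in SI, where 2.93% of all genes were called lower, and in males 0 were called, as for all genes. An unadjusted p under 0.05 was found for 14 of the 52 in females and 10 in males, against 20.2% and 13% of all genes. In females 1 of 7 genes that start the chain was called lower, 1 of 10 that supply precursors, 2 of 13 core proteins and 1 of 8 lysosomal enzymes that break the chain down. None of 11 other chain enzymes and none of 3 remodelling enzymes passed the test. The medians in females were -0.04 for the starting genes, 0.00 for other chain enzymes, -0.11 for precursor supply, -0.05 for core proteins, 0.06 for remodelling and -0.08 for lysosomal breakdown, against 0.01 over all genes. The 15 genes tested for synthesis of chondroitin sulfate, a related sugar chain, had a median of 0.02, with 0 called in either sex by edgeR, while 2 of them in females and 3 in males had an unadjusted p under 0.05, against the same 20.2% and 13% of all genes.

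Xylt1, the xylosyltransferase that starts the chain on its core protein, ran from 50.6 through 68.9 to 79.8 CPM in GH females and from 42.7 through 59.9 to 69.1 in SI females. The groups overlapped for most mice, with 1 of 8 SI females below every GH female, and the Log2FC was -0.16 (SE 0.0382, adjusted p = 0.0317). This call was lost when any of 9 of the 15 females was left out. Papss2, which makes the sulfate donor PAPS, ran from 22.5 through 27.6 to 37.3 CPM in GH and from 17.2 through 21.3 to 24.6 in SI females. With 6 of 8 SI females below every GH female and 6 of 7 GH females above every SI female, its Log2FC was -0.34 (SE 0.0759, adjusted p = 0.022).

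Of the core proteins, the glypican gene Gpc5 ran from 56.4 through 67.3 to 73.5 CPM in GH and from 41.5 through 53.8 to 61.9 in SI females. In each group 5 mice lay outside the range of the other group, and the Log2FC was -0.25 (SE 0.0448, adjusted p = 0.00911). The syndecan gene Sdc4 ran from 95.0 through 117 to 135 CPM in GH and from 75.8 through 95.3 to 129 in SI females, with a Log2FC of -0.27 (SE 0.0526, adjusted p = 0.011). Ids, the lysosomal enzyme that removes sulfate from iduronic acid, ran from 356 through 432 to 488 CPM in GH and from 309 through 330 to 405 in SI females. For Ids 5 of 8 SI females lay below every GH female, and the Log2FC was -0.28 (SE 0.0572, adjusted p = 0.0136). None of the 5 was called by edgeR without surrogate variables. Other fits with none called some pathway genes in females: 5 with limma-voom, and 2 with edgeR after the length and GC trend was removed. Without SI female 68 none of the 5 genes was called, with adjusted p from 0.0598 for Gpc5 to 0.116 for Papss2, and without SI female 63 or SI female 45 only 1 gene of the pathway was called.

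In males these 5 genes had Log2FC of -0.30 (Xylt1), -0.20 (Papss2), -0.20 (Gpc5), -0.18 (Sdc4) and -0.34 (Ids), with adjusted p from 0.295 to 0.623. Without SI males 25, 33 and 39 all 5 moved toward or past 0, to -0.14 (Xylt1), 0.20 (Papss2), -0.043 (Gpc5), -0.019 (Sdc4) and -0.083 (Ids), with adjusted p from 0.748 to 0.989. The genes next in p in lists with no call were Ndst4, given above, Hs3st4, a 3-O-sulfotransferase gene, at -0.09 (adjusted p = 0.315), Hpse, the heparanase gene, at 0.31 (adjusted p = 0.389), and Sulf2, which removes 6-O-sulfate outside the cell, at -0.05 (adjusted p = 0.66). Those values are from females and did not pass the threshold. Among GH mice, males were lower than females for Papss2 (Log2FC -0.48, adjusted p = 0.0252), Sdc4 (-0.36, adjusted p = 0.0216), Gpc5 (-0.29, adjusted p = 0.0212) and Ids (-0.23, adjusted p = 0.0382), and Xylt1 was at -0.05 (adjusted p = 0.553). These values share the GH females with the housing comparison. For the pathway genes the comparison of sexes was not rerun under the other settings, over which 16 to 1935 of all genes were called.

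**Figure D5:**
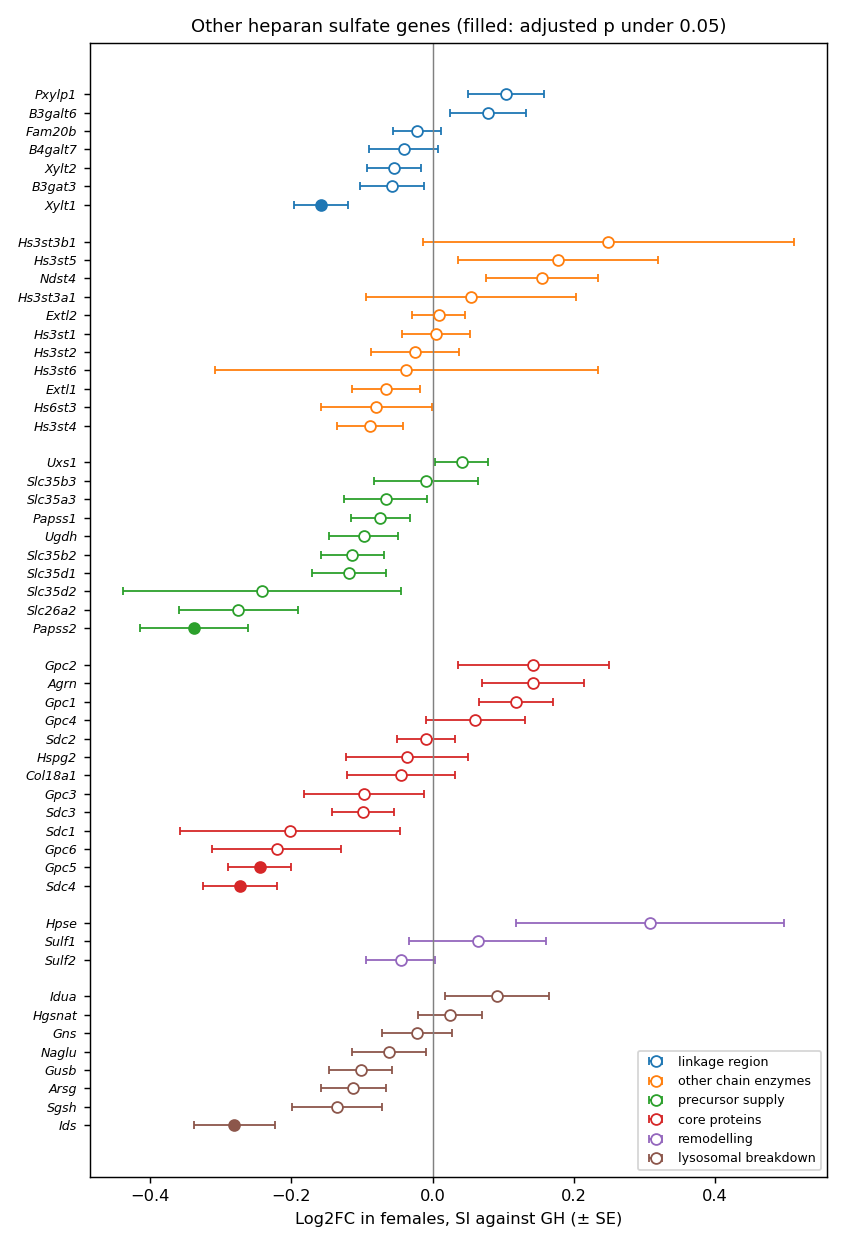
Log2FC of SI against GH in females (x axis, log2, ± SE) for 52 other genes of heparan sulfate metabolism (y axis), coloured by step, with filled points at an adjusted p under 0.05. The 5 filled points, Xylt1, Papss2, Gpc5, Sdc4 and Ids, all lay below 0, from -0.34 to -0.16.

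The window of Sdc4 is shown as that of a core protein gene that fell in females. It comes from the same RefSeq set on GRCm38.p6, with GC boxes in capitals, and was 67.7% GC with 22 CpG and 4 GC boxes.
Sdc4 (chr2:164443139-164443438, minus strand): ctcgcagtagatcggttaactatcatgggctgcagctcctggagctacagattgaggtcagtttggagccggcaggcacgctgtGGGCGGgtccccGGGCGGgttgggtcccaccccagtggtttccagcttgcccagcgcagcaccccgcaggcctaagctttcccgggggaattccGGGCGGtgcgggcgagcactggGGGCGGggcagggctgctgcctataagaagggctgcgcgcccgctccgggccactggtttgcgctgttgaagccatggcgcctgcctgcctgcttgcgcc

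Markers of other cell types moved in SI females beside these genes. All 5 astrocyte markers were lower in SI females, with 2 called (Slc1a3 at -0.24, adjusted p = 0.014, and Aldh1l1 at -0.27, adjusted p = 0.0215) and a median Log2FC of -0.21. Their summed CPM ran from 1723 to 2220 in GH and from 1361 to 1975 in SI females, and none was at 0. All 5 astrocyte markers were also lower in SI than in GH males, with a median Log2FC of -0.21 and 0 called. In GH males against GH females all 5 were lower as well, with a median of -0.24 and 2 called. All 5 endothelial markers were higher, 1 of them called, with sums of 159 to 209 CPM in GH and 195 to 240 in SI females. All 5 dentate gyrus markers were also higher in SI females, 1 of them called, with a median Log2FC of 0.19, as were all 7 choroid plexus markers (median 0.26) and all 5 striatum markers (median 0.12), with none called. All 5 oligodendrocyte and all 5 microglia markers were lower, with medians of -0.08 each and none called. The summed CPM ran from 194 to 326 in GH and 229 to 389 in SI females for dentate gyrus, from 5982 to 9162 and 5182 to 8384 for oligodendrocytes, and from 287 to 334 and 262 to 328 for microglia. In the neuron list 1 of 5 was called lower and in the CA3 list 1 of 5 higher, and no marker of CA1, interneurons or thalamus was called in females. No marker of any list was called in males by edgeR. The part of these shifts in the values of Ndst1 and of the 5 pathway genes was not tested.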

How the data were processed

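RNA was measured by poly(A)-selected RNA-seq in the hippocampus of 30 mice. Per the submitters' processing notes, reads were trimmed with Trimmomatic 0.39 and quantified with Salmon 1.8.0, GRCm39 is named as the build, and DESeq2 1.24.0 was their test. The annotation release is not given in the sources used here. The authors deposited 1 table of raw counts by gene and library, not normalized, and 0 of its columns had no sample. Each of the 17477 genes listed has a total of at least 100 counts.

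The housing comparison was fitted within each sex in R 4.3.3 with edgeR 4.0.16 (filterByExpr with minimum count 10 and total 15, TMM, glmQLFit and glmQLFTest) and with surrogate variables from svaseq of sva 3.50.0 (20 permutations, seed 1): 3 in females, 2 in males and 4 in the fit of all mice used for sex and interaction. P-values were adjusted by Benjamini-Hochberg over all genes tested, with a threshold of 0.05. Each SE of a Log2FC was derived from the test, as the absolute Log2FC divided by the square root of the F of glmQLFTest. Log2 CPM used a prior count of 2. Lengths, GC and gene positions came from GENCODE on NCBIM37, and start windows from RefSeq. Length and GC are those of the longest protein-coding transcript of each gene. Single values of libraries were tested by exact permutation over 6435 splits.

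The members, the pathway and marker lists and the tests were chosen with earlier results of these data known. Named genes are the 10 members, the pathway genes called in either sex or, in lists with no call, the 2 with the smallest p in females, and the 5 genes most correlated with Ndst1 in females. Alternatives were no surrogate variables, the position digit of the labels in their place, DESeq2 1.42.0, limma-voom (limma 3.58.1) weighted by sample quality, size factors as in DESeq2, no filter, a lowess correction of every library for transcript length and GC (span 0.3), all groups in 1 fit, and leaving out each mouse in turn or SI males 25, 33 and 39. The steps were tested on simulated data in which, apart from random noise, libraries differed only by size and by the added changes. The correction by surrogate variables was therefore not tested there. Precision is set by the spread between mice, with 133 counts or more for each member in each library.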

Additional observations from a re-analysis of the deposited data

Results flagged for a closer look

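Dixon's test was applied to each of the 10 genes in each of the 4 groups, and chance alone flags about 1 in 20 such sets. Each of 3 values stood apart from the rest of its group by this test. Ndst2 was at 12.9 CPM in GH female 46, with the next GH female at 11.2. Ndst3 was at 9.95 CPM in SI female 52, with the next SI female at 13.8. Hs6st1 was at 68.2 CPM in SI female 45, with the next SI female at 53.2. Their causes were not tested.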

How the results depend on the processing

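The position digit, no surrogate variables and the other settings were planned, except that the length and GC correction in a fit with no surrogate variables, and every setting for the pathway genes, were added after seeing the data. In females 624 genes were called, 75.3% of them lower. Ndst1 chose the list and is given with no test, and no other member was called in this fit or in any other setting. In edgeR the count became 0 genes and 0 pathway genes (from 5) with no surrogate variables and with the position digit. It became 1262 genes (67.4% lower) with DESeq2 and 944 (68.9% lower) without the length and GC trend. When surrogate variables were also dropped it was 90 (60% lower), with 2 pathway genes. With limma-voom, which was fitted without surrogate variables, 838 genes were called, 63.5% of them lower. With all groups in 1 fit 510 were called, 55.7% of them lower. Leaving out each mouse gave 88 (without SI female 68) to 1427 genes (without GH female 78) and 0 (without SI female 68) to 6 pathway genes. In males 0 genes became 44 with DESeq2 and 1 without SI males 25, 33 and 39, and leaving out each mouse gave 0 to 2414 genes, 0 to 2 members and 0 to 9 pathway genes, the highest each time without SI male 27, when Ext1 (0.30, adjusted p = 0.0105) and Glce (-0.21, adjusted p = 0.0294) were called by edgeR. For GH males against GH females, 1035 genes were called. This became 16 with no surrogate variables, 1935 with DESeq2, 654 with no filter and 150 without the 3 SI males. Ndst1 is given with no test, and of the other members only Ext2 was called in any of these settings, with DESeq2. For the interaction 0 genes became 8 with DESeq2.

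Log2FC changed sign as follows, none of these values being called. With no surrogate variables, males were at 0.17 (Sdc4), -0.22 (Sulf2), -0.16 (Ndst2), -0.11 (Ext2) and -0.24 (Hs6st1), sex under GH at 0.061 (Ndst3), and the interaction at -0.14 (Ndst1) and -0.15 (Extl3). With the position digit, Sulf2 was at 0.029 in females, and males at 0.15 (Sdc4), -0.30 (Sulf2), -0.11 (Ndst2), -0.13 (Ext2) and -0.27 (Hs6st1). With limma-voom, males were at -0.086 (Sulf2), -0.019 (Ndst2), -0.018 (Ext2) and -0.070 (Hs6st1). With the length and GC trend removed, males were at 0.0082 (Ndst4), -0.015 (Ext2) and 0.034 (Extl3), and without surrogate variables as well at 0.13 (Sdc4), -0.073 (Sulf2), -0.084 (Ndst2), -0.097 (Ext2), 0.057 (Extl3) and -0.17 (Hs6st1). Ext1 in females was at -0.0022 with DESeq2 and -0.00037 with its size factors, which put Hs6st2 at 0.0054 for sex and Ndst2 at 0.0030 for the interaction. With all groups in 1 fit Ndst4 was at 0.094 in males, and with no filter sex under GH was at 0.0078 (Ndst3) and 0.034 (Hs6st2). Without SI males 25, 33 and 39, males were at 0.0056 (Ndst4), -0.020 (Hs3st4), 0.20 (Papss2), -0.076 (Sulf2), -0.020 (Ext1), -0.043 (Ext2) and -0.096 (Hs6st1), and the interaction at 0.0038 (Ndst2), -0.0015 (Ext1), 0.013 (Glce) and -0.00029 (Hs6st2). Over mice left out in turn, females ran from -0.068 to 0.031 (Sulf2), -0.0072 to 0.076 (Ndst2) and -0.021 to 0.068 (Ext1), and males from -0.21 to 0.033 (Ndst4), -0.12 to 0.11 (Sulf2), -0.12 to 0.091 (Ndst2), -0.063 to 0.051 (Ext2), -0.13 to 0.031 (Extl3) and -0.20 to 0.10 (Hs6st1). The causes were not tested. No paired analysis was possible because each animal number belongs to 1 mouse. The lowest counts of a member in a library were 133 for Ndst2 and 169 for Ndst3.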
